A study of Mus musculus with 12 samples.

Results

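The comparison described here set corticotrophs collected 4 weeks after the withdrawal of dexamethasone (DEX) against corticotrophs from mice that drank plain water throughout. Its members were chosen by 2 rules. The libraries were the 3 pools of the 4-week group and the 3 pools of the control group, 6 of the 12 libraries in the series, and the genes were those with a value above 0.1 in at least 3 of the 12 libraries, which kept 24736 of the 55304 genes in the table. The mice were male, 8 weeks old at the start, and carried a *Pomc*-eGFP transgene on a C57Bl6/J background, so that the *Pomc* promoter drove green fluorescent protein in the controls and the treated animals alike. Control mice received drinking water for 8 weeks. Mice of the 4-week group received DEX at 2.5 µg per ml of drinking water for 4 weeks and then water for 4 weeks (28 days), and the groups were killed in the morning at a common end point. Each library was made from amplified RNA of live eGFP-positive cells sorted from the pooled anterior pituitaries of 2 or 3 mice, so a pool, not an animal, is the replicate (n = 3 pools per group), and the sort selects on a transgene under the promoter of the hormone gene that DEX represses. The pools of mice still on DEX and of mice 1 week after withdrawal enter the fit and are used below only as points of reference.

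Corticotrophs are the anterior pituitary cells that make adrenocorticotrophic hormone (ACTH). They express *Pomc*, whose product is cleaved to ACTH, under the control of the pituitary transcription factor T-pit (*Tbx19*), and they answer corticotrophin-releasing hormone and vasopressin from the hypothalamus through the receptors *Crhr1* and *Avpr1b*. Glucocorticoids from the adrenal, or a synthetic one such as DEX, act back on these cells through the glucocorticoid receptor (*Nr3c1*) and repress *Pomc*, and after long exposure this axis can stay suppressed once the drug is stopped. The comparison asks which genes of the sorted cells still stood apart from control at that late time.

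Between 7719894 and 11443517 reads per control pool and between 9653421 and 12848078 per 4-week pool were assigned to genes, so that 1 read was worth 0.0787 to 0.118 units of normalised expression in control and 0.0902 to 0.109 at 4 weeks. A unit is a normalised count, the read count as CPM of the effective library size. *Pomc* held 3.80 to 8.25% of the reads in control and 4.56 to 6.92% at 4 weeks, and *Tbx19*, *Crhr1* and *Pcsk1* were read in all 6 pools, as the label of the cells requires. The sorted pools also held much hormone RNA of other lineages. *Gh*, the growth hormone of somatotrophs, took 8.76 to 20.3% of the reads in control and 15.4 to 22.9% at 4 weeks, and *Prl*, the prolactin of lactotrophs, took 3.50 to 7.26% and 8.17 to 10.3%. Control pool 3 stood furthest from its group, with an array weight of 0.39 in limma against 0.821 to 2.03 for the other 5 pools compared.

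Across all genes no difference between the 2 groups passed correction for multiple testing. With limma on log2(value + 0.1), fitted to the 4 groups together, 0 of 24736 genes (0%) had a Benjamini-Hochberg adjusted p under 0.05, and the smallest adjusted p was 0.326. At an unadjusted p under 0.05 there were 1570 genes, of which 848 (3.43%) were higher and 722 (2.92%) lower 4 weeks after withdrawal. In 1674 genes (6.77%) the 3 pools of the 4-week group all lay above the 3 control pools, and in 1589 (6.42%) they all lay below. These percentages over all genes are the background against which each gene list below is read. The median log2 fold change over all genes was 0.00 and the median of its absolute value was 0.359.

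Other tools applied to the same pools did call genes at an adjusted p under 0.05. limma with array weights called 186 (128 higher, 58 lower), the edgeR likelihood ratio test 93 (40 higher, 53 lower) and DESeq2 59 (47 higher, 12 lower), whereas the edgeR quasi-likelihood test called 0. Array weights also gave more genes at an unadjusted p under 0.05, 1956 higher and 1925 lower, and list counts that depend on the tool are given with it below. Of these, 78 genes were called by at least 2 of the 3 tools, 57 of them higher and 21 lower, and 13 were called by all 3. The limma p-values rest on the spread between sorted pools, moderated by a trend of that spread with level over all genes. The SE of a gene can thus differ from the spread of its own pools. The edgeR likelihood ratio test took the spread of a gene from that of genes of like level alone. With 3 pools against 3 an exact permutation test on a single gene cannot go below 0.1. Of the 24736 genes, 17757 had reads in all 6 pools, 15721 had a mean of at least 1 unit, 2727 had at most 3 reads in each pool and 80 had none.

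**Figure D1:**
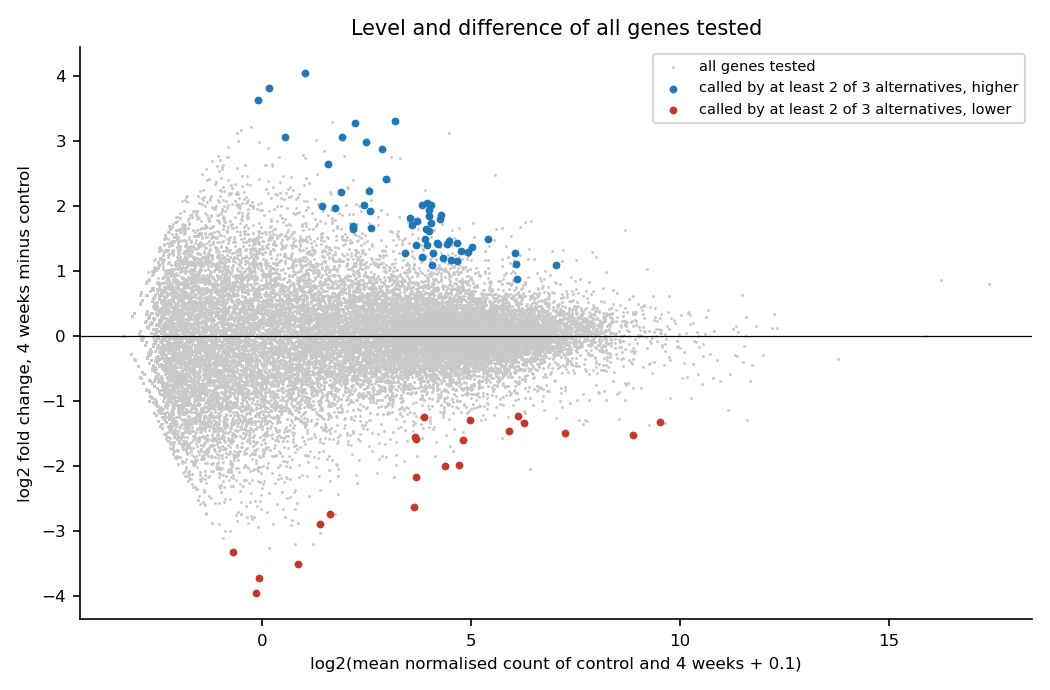
Each small point is 1 of the 24736 genes tested, with log2(mean normalised count of the 6 pools + 0.1) on the horizontal axis and the log2 fold change, 4 weeks minus control, on the vertical axis, and larger points are the genes called by at least 2 of the 3 alternative tools (57 higher, 21 lower). The spread around 0 narrows as the level goes up, and the larger points lie along its upper and lower edges.

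None of the leading genes passed correction with limma, and they were named by a rule in 2 parts. The first part took the smallest limma p in each direction, among genes without overlap of the groups and above a minimum mean. The second part added genes that more than 1 of the alternative tools had called, which is a passed threshold in those tools. Values in each pool are given for many of them. The gene with the smallest p was *F2r*, the thrombin receptor PAR1, on chr13:95601803-95618487 (GRCm38). Its values were 7.16, 7.30 and 5.76 units in control pools 1 to 3 and 28.0, 27.9 and 18.5 in the 4-week pools. The groups did not overlap, and the mean went from 6.74 ± 0.851 to 24.8 ± 5.46 (SD, n = 3), a log2 fold change of 1.85 (SE 0.309, limma adjusted p = 0.326). *F2r* was called by limma with array weights, the edgeR likelihood ratio test and DESeq2, but not by the edgeR quasi-likelihood test (adjusted p = 0.36). Its log2 fold change lay between 1.74 and 2.04 when any 1 library was left out. *Cpxm2*, a carboxypeptidase-like protein of the extracellular space on chr7:132032687-132154739, had 7.47, 5.65 and 9.46 units in control and 25.4, 20.4 and 30.0 at 4 weeks. Its log2 fold change was 1.75 (SE 0.297, adjusted p = 0.326), again without overlap of the groups.

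Several of the leading higher genes encode secreted or matrix proteins. *Prelp*, a leucine-rich proteoglycan that binds basement membranes, on chr1:133910304-133921414, had 4.72, 3.89 and 12.6 units in control and 24.2, 28.5 and 23.5 at 4 weeks (log2 fold change 2.02, SE 0.387, adjusted p = 0.394). Control pool 3 was the highest of its group, and without that pool *Prelp* was the only gene to pass correction with limma, at a log2 fold change of 2.53 and an adjusted p of 0.03. *Dkk3*, a secreted member of the dickkopf family, had 5.66, 6.83 and 4.78 units in control and 24.8, 19.6 and 15.7 at 4 weeks (log2 fold change 1.77, adjusted p = 0.394). Every 4-week pool was above every control pool for both. *Sulf2*, which trims sulphate from heparan sulphate chains, had a log2 fold change of 1.15, and *Plat*, tissue plasminogen activator, one of 1.27. The 3 control values of *Plat* were 37.8, 37.9 and 38.1 units and those at 4 weeks 132, 72.1 and 81.1.

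The apelin pair was higher on both sides. *Apln*, the peptide ligand, on chrX:48025146-48034853, had 6.84, 10.4 and 6.20 units in control and 19.7, 22.8 and 22.4 at 4 weeks (log2 fold change 1.49, SE 0.306, adjusted p = 0.394). Its receptor *Aplnr*, on chr2:85136225-85139923 and a marker of endothelial cells, had 0.315, 2.59 and 3.48 units in control and 10.6, 18.1 and 8.03 at 4 weeks (log2 fold change 2.88, SE 0.812, adjusted p = 0.527). Neither gene's groups overlapped, and neither passed correction with limma. *Axl*, a receptor tyrosine kinase for the ligand Gas6, had 6.29, 6.48 and 8.81 units in control and 18.7, 27.6 and 22.3 at 4 weeks (log2 fold change 1.65, adjusted p = 0.394). *Tril*, an accessory protein of toll-like receptors, had 5.66, 8.13 and 9.68 units in control and 23.6, 27.8 and 19.9 at 4 weeks (log2 fold change 1.61, adjusted p = 0.394).

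The other leading higher genes included enzymes, transporters and 1 gene near the detection limit, *Igfbp6*. *Aldoc*, the glycolytic aldolase C, had 74.5, 75.0 and 103 units in control and 188, 168 and 179 at 4 weeks (log2 fold change 1.10, SE 0.224, adjusted p = 0.394). *Galnt16*, which starts O-linked sugar chains, had a log2 fold change of 1.46, *Slc6a11*, a GABA transporter, one of 1.29, *Maob*, monoamine oxidase B, one of 1.31, and *Slc26a7*, an anion exchanger, one of 1.97. *Aldh1a2*, which makes retinoic acid, had a log2 fold change of 1.11. These 6 genes had no overlap between the groups, which the rule required of *Aldoc* and *Galnt16*, and each had an adjusted p of 0.394 in limma. *Igfbp6*, a binding protein for insulin-like growth factor, rested on 1 read over the 3 control pools against 52 over the 4-week pools, a ratio of 50.9 with a 95% counting interval of 8.74 to 2049 (exact, conditional binomial, counting error only).

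**Figure D2:**
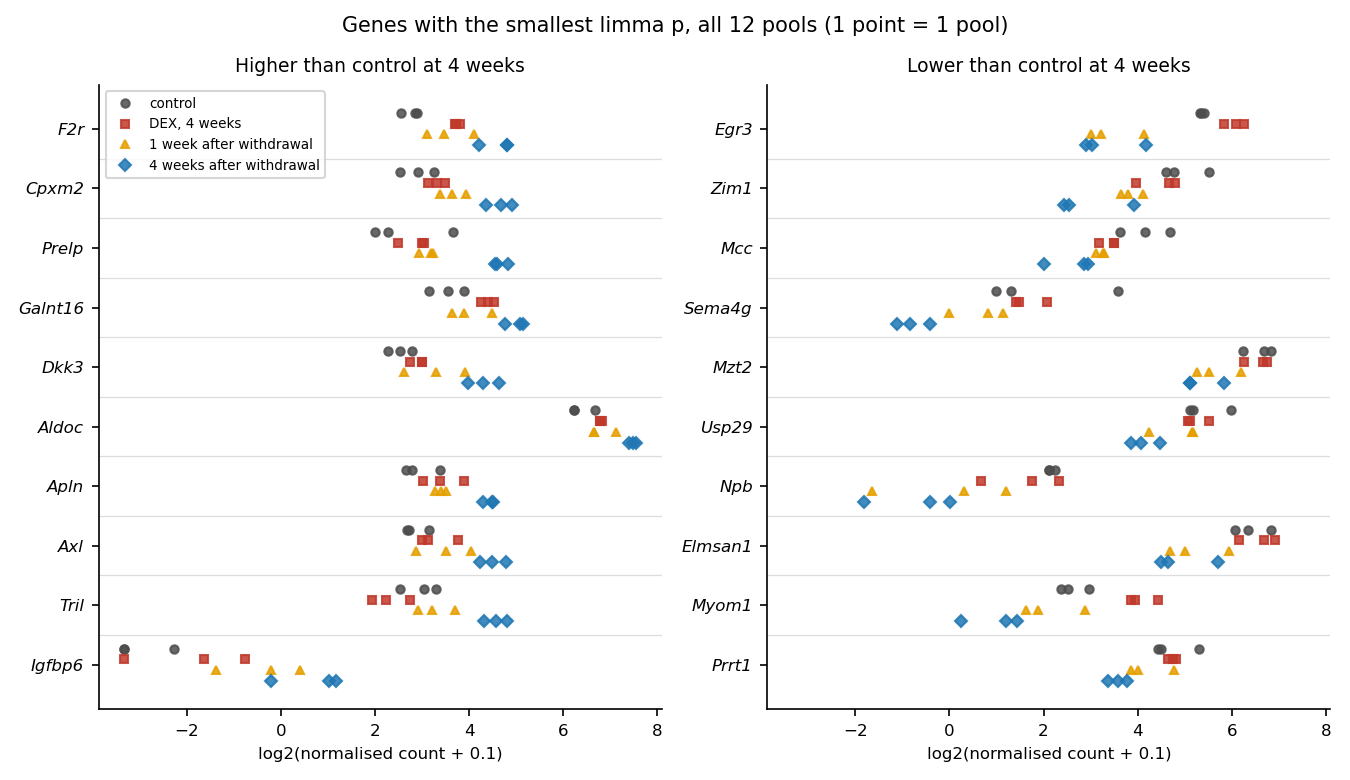
Points are single pools of all 4 groups on a log2(normalised count + 0.1) axis, for the 10 higher genes (left) and 10 lower genes (right) with the smallest limma p. In each row the 3 pools of the 4-week group lie on the far side of the 3 control pools, as the rule that chose these genes required, while the DEX pools and the pools 1 week after withdrawal take varied places.

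Among the lower genes the first was *Egr3*, an immediate early zinc-finger transcription factor on chr14:70077203-70082614. It had 42.1, 40.8 and 39.7 units in control and 18.02, 8.10 and 7.40 at 4 weeks. The control pools lay close together and well above the 4-week pools, with means of 40.8 ± 1.20 and 11.2 ± 5.94 and a log2 fold change of -1.98 (SE 0.351, adjusted p = 0.343, limma). The related *Egr4*, on chr6:85511121-85513589, had 176, 283 and 214 units in control and 70.5, 83.2 and 82.0 at 4 weeks (log2 fold change -1.49, SE 0.454, adjusted p = 0.568), also without overlap. *Npb*, the precursor of neuropeptide B, on chr11:120608477-120609093, had 4.64, 4.24 and 4.24 units in control and 0.185, 0.657 and 0.902 at 4 weeks (log2 fold change -2.90, adjusted p = 0.472).

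A pair of imprinted neighbours on chromosome 7 was among the leading lower genes. *Zim1*, a zinc-finger gene on chr7:6671269-6696450, had 45.9, 27.2 and 24.4 units in control and 15.2, 5.69 and 5.32 at 4 weeks (log2 fold change -2.0, SE 0.393, adjusted p = 0.394). *Usp29*, a ubiquitin peptidase on chr7:6730578-6967219, had 63.3, 35.8 and 34.7 units in control and 22.2, 16.7 and 14.3 at 4 weeks (log2 fold change -1.29, SE 0.319, adjusted p = 0.469). In both genes the groups were apart and pool 1 was the highest of each group. *Peg3*, which lies between them on chr7:6703892-6730431 and was looked at only after these values were seen, had 2203, 1262 and 789 units in control and 1011, 914 and 648 at 4 weeks (log2 fold change -0.62, adjusted p = 0.845), so its groups overlapped. *Usp29* and *Peg3* start on opposite strands of a shared promoter. The window of 250 bases before to 50 bases after the *Usp29* start (RefSeq, GRCm38.p6, chr7:6730333-6730632, plus strand) is shown for that reason, since 263 of its 300 bases also belong to the *Peg3* window on the other strand, with its single cAMP response element (TGACGTCA, searched on both strands) in capitals.
Usp29: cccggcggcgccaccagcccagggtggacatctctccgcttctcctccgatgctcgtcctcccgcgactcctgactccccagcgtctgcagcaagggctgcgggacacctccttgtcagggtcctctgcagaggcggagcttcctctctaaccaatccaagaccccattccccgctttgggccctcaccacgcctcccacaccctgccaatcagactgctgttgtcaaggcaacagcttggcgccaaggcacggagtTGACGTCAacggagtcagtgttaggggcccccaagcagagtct
That element was found in 588 of all 32851 windows (1.79%). Windows were held for only 25 of the 35 leading genes, some with more than 1 window. The 12 leading lower genes that had a window had 22 windows, 2 of them (9.09%) with the element, for *Usp29* and *Errfi1*. The element was in none of the 17 windows of the 13 leading higher genes with one. These shares rest on 2 windows and were not tested. The letters of an Egr site, GCGTGGGCG, were in 0.612% of all windows and in none of those of the leading genes.

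The remaining leading lower genes had varied roles. *Mzt2*, a component of the gamma-tubulin ring complex, had 75.1, 114 and 103 units in control and 57.2, 34.4 and 34.6 at 4 weeks (log2 fold change -1.23, adjusted p = 0.469). *Errfi1*, a glucocorticoid-inducible feedback inhibitor of the EGF receptor and the most abundant of these genes, had 1712, 1015 and 480 units in control and 510, 301 and 352 at 4 weeks (log2 fold change -1.32, adjusted p = 0.754), so that control pool 3 lay within the range of the 4-week pools. Log2 fold changes were -1.56 for *Mcc*, -1.46 for *Elmsan1*, a scaffold of a histone deacetylase complex, -1.60 for *Dot1l*, a histone H3 methyltransferase, -1.35 for *Tgif1*, a homeobox repressor, -2.18 for *Sphk1*, sphingosine kinase, -1.66 for *Myom1*, of the muscle M-band, and -1.17 for *Prrt1*, an AMPA receptor partner. They were -1.58 for *Dgkb*, a diacylglycerol kinase, and -3.52 for *Catsperg1*, a subunit of a sperm calcium channel that stood at 3.09 ± 1.26 units in control and 0.307 ± 0.456 at 4 weeks. In *Dgkb* alone of these 9 genes did the groups overlap, but the rule had allowed no overlap for *Mcc*, *Elmsan1*, *Myom1* and *Prrt1*. *Sema4g*, a semaphorin, had 2.36, 1.88 and 11.96 units in control and 0.462, 0.657 and 0.361 at 4 weeks. Its log2 fold change was -2.74 (adjusted p = 0.469), and -1.93 without control pool 3.

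Since none of the 24736 genes tested passed correction with limma, none that defines the corticotroph did, and the groups overlapped for *Pomc*. *Pomc* itself had 74260.1, 34562 and 74221 units in control and 49562, 48189 and 80216 at 4 weeks. The mean was 61015 ± 22908 in control and 59322 ± 18108 at 4 weeks (SD, n = 3), with a log2 fold change of 0.00 (SE 1.10, limma adjusted p = 1, exact permutation p = 1, two-sided). The sign of so small a value changed with the scaling, the tool and the pools used, from -0.36 with quantile normalisation or without control pool 2 to 0.19 without control pool 1 or 3, and the SE was far larger than the value. For reference, the DEX pools had a mean of 5708 units and the pools 1 week after withdrawal one of 159270.

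*Tbx19* lay below every control pool at 4 weeks without passing the test. It had 459, 229 and 218 units in control and 166, 94.4 and 188 at 4 weeks (log2 fold change -0.99, SE 0.653, adjusted p = 0.863, exact permutation p = 0.1, which is the smallest possible). *Crhr1* had 189, 95.2 and 85.5 units in control and 49.2, 52.9 and 101 at 4 weeks (log2 fold change -0.85, adjusted p = 0.903), and *Avpr1b* had 60.0, 25.6 and 12.1 against 14.2, 9.30 and 24.5 (log2 fold change -0.83, adjusted p = 0.920). The groups overlapped for both receptors, and in both the highest value was control pool 1. Without that pool the log2 fold change was -0.49 for *Crhr1*, -0.24 for *Avpr1b* and -0.64 for *Tbx19*, and for *Avpr1b* it was -1.40 without control pool 3. *Pcsk1*, the convertase that cuts ACTH from its precursor, had 521, 359 and 155 units in control and 417, 367 and 348 at 4 weeks (log2 fold change 0.29, adjusted p = 0.958), and its sign turned to -0.20 without control pool 3. Of the 12 corticotroph identity genes, 0 had an unadjusted p under 0.05, and their median log2 fold change was -0.13. Of the 12, 0 lay above and 3 below all control pools, against 6.77% and 6.42% of all genes. The median was -0.32 without control pool 2 or 3, and without pool 3 of the 1-week group, which enters only the estimate of the spread, 3 of the 12 were lower at an unadjusted p under 0.05, as were 3 with array weights, 4 with the edgeR likelihood ratio test and 1 with DESeq2 or the edgeR quasi-likelihood test. Of the 12, 1 also belongs to a list that was chosen on these libraries.

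**Figure D3:**
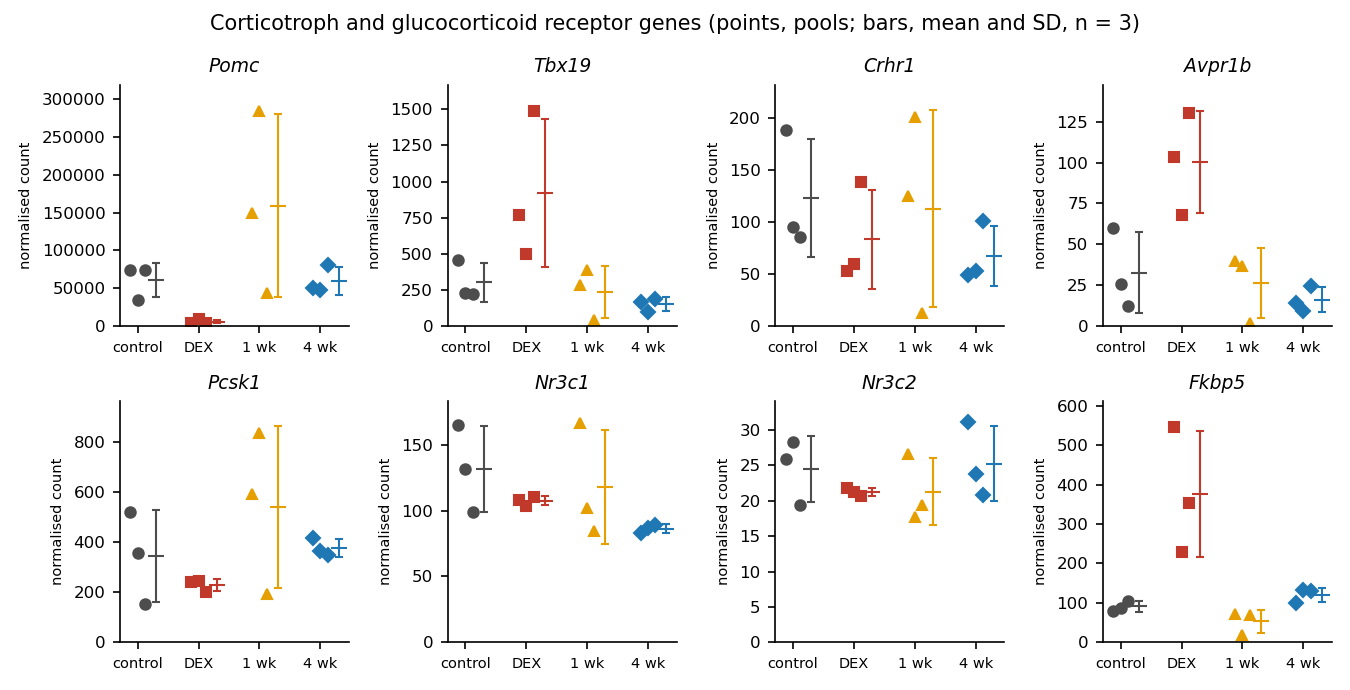
Points are pools, and bars give the mean and SD (n = 3) of the normalised count on linear axes that start at 0, for control, DEX, and 1 and 4 weeks after withdrawal. Control and 4-week pools overlapped for *Pomc*, *Crhr1*, *Avpr1b*, *Pcsk1*, *Nr3c2* and *Fkbp5*, and did not for *Tbx19* and *Nr3c1*.

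Of 19 genes for prohormone processing and secretory granules, 0 were higher and 2 lower at an unadjusted p under 0.05, with a median of 0.08. The lower ones were *Stx1a*, a syntaxin of vesicle fusion, with 22.7, 17.1 and 23.3 units in control and 14.04, 10.9 and 13.9 at 4 weeks (log2 fold change -0.69, adjusted p = 0.708), and *Vgf*, a granule peptide precursor (log2 fold change -1.06, adjusted p = 0.767, and -0.70 without control pool 1). Without control pool 1 or 4-week pool 2 the count of 2 went to 0.

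The glucocorticoid receptor was lower in its mean, and the genes around it moved in both directions. *Nr3c1* had 165, 132 and 99.1 units in control and 82.9, 87.1 and 89.1 at 4 weeks. The groups did not overlap, the 4-week pools were tightly grouped, and the log2 fold change was -0.58 (SE 0.267, adjusted p = 0.777, exact permutation p = 0.1). The mineralocorticoid receptor *Nr3c2* had 25.9, 28.3 and 19.4 units in control and 31.1, 23.8 and 20.8 at 4 weeks (log2 fold change 0.04, adjusted p = 0.991). *Hsd11b1*, which regenerates active glucocorticoid inside the cell, had 6.92, 10.6 and 21.4 units in control and 32.1, 29.0 and 20.5 at 4 weeks (log2 fold change 1.19, SE 0.355, adjusted p = 0.557), with only control pool 3 inside the range of the other group. *H6pd*, the enzyme that supplies its cofactor NADPH in the endoplasmic reticulum, was among the leading higher genes, with 11.9, 12.5 and 9.02 units in control and 18.1, 39.4 and 36.0 at 4 weeks (log2 fold change 1.41, SE 0.32, adjusted p = 0.469). *Hsd11b2*, which inactivates glucocorticoid, had 0 reads in the control pools and 12 over the 4-week pools, at least 3.92-fold higher against a floor of 3 reads over the group.

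*Fkbp5*, a classical target of the receptor that limits its hormone binding, had 80.8, 86.8 and 106 units in control and 100.2, 133 and 129.7 at 4 weeks (log2 fold change 0.41, SE 0.42, adjusted p = 0.915), against a mean of 376 units in the DEX pools. Over the list of 20 glucocorticoid receptors and targets, 2 genes were higher (*Hsd11b1* and *Hsd11b2*) and 4 lower (*Per1*, *Errfi1*, *Hif3a* and *Nr3c1*) at an unadjusted p under 0.05, and the median was 0.05. Of the 20, 5 belong to the list chosen on these libraries. The count of 4 went to 0 without 4-week pool 2, to 1 without control pool 1 or 4-week pool 3 and to 2 without control pool 2, and that of 2 went to 1 without 4-week pool 3, while array weights gave 3 higher and 6 lower.

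Immediate early genes and clock genes were on the low side 4 weeks after withdrawal, though few members reached an unadjusted p under 0.05. Of 19 genes of the immediate early and dissociation stress list, 16 had a negative log2 fold change, 0 were higher and 3 lower at that level, and the median was -0.37. Beside *Egr3* these were *Fosb*, with 259, 308 and 640 units in control and 293, 160 and 140 at 4 weeks (log2 fold change -0.98, adjusted p = 0.708, and -0.59 without control pool 3), and *Atf3* (log2 fold change -0.95, adjusted p = 0.767). *Nr4a1*, the nuclear receptor Nur77 that corticotrophs induce on stimulation, had 2847, 3155 and 2488 units in control and 2080, 1944 and 1619 at 4 weeks, without overlap of the groups (log2 fold change -0.59, adjusted p = 0.869). The summed level of the list was 25079 to 27412 units in control and 19836 to 20363 at 4 weeks. Because enzymatic dissociation and sorting themselves induce these genes, their level also depends on handling, whose part in the difference was not tested. The count of 3 lower genes was 8 with array weights and 6 with the edgeR likelihood ratio test, went to 1 without 4-week pool 2 or 3, and to 2 without control pool 2 or 3.

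Of 17 circadian clock genes, 13 had a negative log2 fold change, 0 were higher and 4 lower at an unadjusted p under 0.05, and the median was -0.37. *Per1* had 42.2, 42.9 and 78.5 units in control and 37.4, 21.0 and 24.4 at 4 weeks (log2 fold change -0.96, adjusted p = 0.684). *Per3* had 67.0, 41.5 and 43.2 units in control and 35.1, 17.8 and 27.5 at 4 weeks (log2 fold change -0.93, adjusted p = 0.728), and *Arntl*, the clock activator BMAL1, 63.7, 64.2 and 46.1 against 44.0, 38.4 and 32.9 (log2 fold change -0.59, adjusted p = 0.765). None of these 3 genes overlapped between the groups. *Ciart*, a repressor of the clock activators, had 12.3, 12.3 and 6.96 units in control and 7.95, 2.96 and 4.87 at 4 weeks (log2 fold change -1.05, adjusted p = 0.767, and -0.70 without 4-week pool 2), with overlap. The count of 4 went to 0 without 4-week pool 2, to 1 without control pool 1 and to 2 without control pool 2 or 4-week pool 3, and was 7 with array weights, and the median was -0.57 without control pool 3. Of the 17, 1 belongs to the list chosen on these libraries. The *Ciart* promoter window (RefSeq, GRCm38.p6, chr3:95882179-95882478, minus strand) is shown as the member with several copies of the E-box CACGTG, the site that BMAL1 and its partner bind, with its 3 E-boxes in capitals.
Ciart: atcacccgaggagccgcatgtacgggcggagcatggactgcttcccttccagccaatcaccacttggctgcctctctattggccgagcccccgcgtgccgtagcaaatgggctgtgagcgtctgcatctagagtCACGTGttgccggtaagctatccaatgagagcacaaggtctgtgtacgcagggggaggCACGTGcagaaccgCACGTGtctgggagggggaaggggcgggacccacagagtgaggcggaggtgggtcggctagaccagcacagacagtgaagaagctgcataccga
An E-box was found on either strand in 7.15% of all windows. The 14 clock genes that had a window had 19 windows, 6 of them (31.6%) with an E-box, in 5 genes (*Per1*, *Ciart*, *Bhlhe41*, *Tef* and *Cry1*).

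The largest list medians belonged to cells that are not corticotrophs. Fewer cells of a type and less RNA per cell cannot be told apart in these bulk pools, and the same holds for more. Of 18 endothelial markers, 9 were higher and 1 lower at an unadjusted p under 0.05, 11 lay above and 1 below all control pools, and the median log2 fold change was 1.93. *Pecam1*, the adhesion molecule CD31, had 0.0787, 1.06 and 2.07 units in control and 12.2, 7.66 and 4.24 at 4 weeks (log2 fold change 3.28, SE 0.85, adjusted p = 0.4996). *Adgrl4*, an adhesion receptor of vessels, had 0.393, 1.88 and 1.52 units in control and 13.3, 9.74 and 5.87 at 4 weeks (log2 fold change 2.98, SE 0.725, adjusted p = 0.469). *Plvap*, which forms the diaphragms of fenestrated capillaries, had 2.05, 19.7 and 46.9 units in control and 71.1, 94.7 and 51.3 at 4 weeks (log2 fold change 2.48, adjusted p = 0.708), and *Kdr*, the main receptor for vascular endothelial growth factor, had 3.30, 9.54 and 6.42 against 25.6, 23.8 and 10.6 (log2 fold change 1.64, adjusted p = 0.678).

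In all 4 the lowest 4-week pool was above the highest control pool. Control pool 1 was the lowest of its group in each, and without it the log2 fold change went to 1.21 for *Plvap*, and to 1.91 for *Aplnr*, and the edgeR tests and DESeq2 gave 1.64 for *Plvap*. *Vwf*, von Willebrand factor of larger vessels, went the other way, with 2.12, 2.0 and 2.28 units in control and 0.554, 0.109 and 1.17 at 4 weeks (log2 fold change -2.0, adjusted p = 0.651, and -1.29 without 4-week pool 2). The summed endothelial level was 16.8, 56.8 and 98.5 units in control and 206, 222 and 116 at 4 weeks, and *Erg* was without a read in control pools 1 and 2. Against the same control pools the list median was -1.60 in the DEX pools and 0.98 at 1 week. The count of 9 fell to 3 without control pool 1 or 4-week pool 2 and to 5 without 4-week pool 1, and was 14 without control pool 3 and 16 with array weights, and 4 of the 18 genes belong to the list chosen on these libraries.

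Of 15 pericyte and fibroblast genes, 8 were higher and 0 lower, with a median of 1.57, and 8 lay above all control pools. *Pdgfrb*, the receptor that marks pericytes, had 0.236, 1.77 and 0.544 units in control and 6.56, 8.98 and 3.79 at 4 weeks (log2 fold change 3.06, SE 0.788, adjusted p = 0.4996). *Col3a1*, a fibrillar collagen, had 2.60, 1.77 and 1.30 units in control and 5.27, 14.8 and 9.02 at 4 weeks (log2 fold change 2.23, adjusted p = 0.557), and *Dcn*, the proteoglycan decorin, 0.0787, 11.8 and 22.5 against 24.9, 29.8 and 42.2 (log2 fold change 3.12, adjusted p = 0.758). For these 3 genes too the groups were apart. The value of *Dcn* rests on control pool 1, with 1.48 in both edgeR tests and DESeq2 and 0.95 without that pool. The summed level was 102 to 169 units in control and 208 to 317 at 4 weeks. Reads were absent for *Ogn* in control pool 1, for *Myh11* in control pools 2 and 3 and for *Cspg4* in 3 of the 6 pools. Without control pool 1 the count of 8 went to 3 and the median to 0.98, without 4-week pool 3, and with DESeq2 or the edgeR quasi-likelihood test, the count was 5, and 5 of the 15 genes belong to the list chosen on these libraries.

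For the basement membrane list the count of higher genes did not hang on a single pool. Of its 14 genes 6 were higher and 0 lower, 7 lay above all control pools, the median was 1.06, and the count of 6 was the same whichever of the 6 pools was left out. *Nid2*, nidogen 2, had 10.3, 12.3 and 13.7 units in control and 29.1, 30.1 and 24.0 at 4 weeks (log2 fold change 1.19, SE 0.286, adjusted p = 0.469). *Col4a1*, the alpha 1 chain of type IV collagen, had 5.11, 9.42 and 10.3 units in control and 34.1, 35.5 and 20.4 at 4 weeks (log2 fold change 1.86, SE 0.49, adjusted p = 0.505). *Col4a2*, the alpha 2 chain it assembles with, had 2.36, 3.06 and 4.78 units in control and 12.4, 13.6 and 10.9 at 4 weeks (log2 fold change 1.88, SE 0.537, adjusted p = 0.527). The summed level was 156 to 220 units in control and 231 to 299 at 4 weeks, and 3 of the 14 belong to the list chosen on these libraries. The collagen chains are transcribed away from each other, and the *Col4a1* window (RefSeq, GRCm38.p6, chr8:11312777-11313076, minus strand) is shown because 78 of its 300 bases, in capitals, also lie in the *Col4a2* window on the other strand (overlap chr8:11312777-11312854).
Col4a1: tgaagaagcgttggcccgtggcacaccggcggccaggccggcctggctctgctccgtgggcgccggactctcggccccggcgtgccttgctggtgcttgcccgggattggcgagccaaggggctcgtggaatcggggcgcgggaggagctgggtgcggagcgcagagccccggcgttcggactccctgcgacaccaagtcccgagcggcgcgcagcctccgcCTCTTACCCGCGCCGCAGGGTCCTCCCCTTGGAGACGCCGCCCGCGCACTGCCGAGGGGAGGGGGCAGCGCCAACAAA

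**Figure D4:**
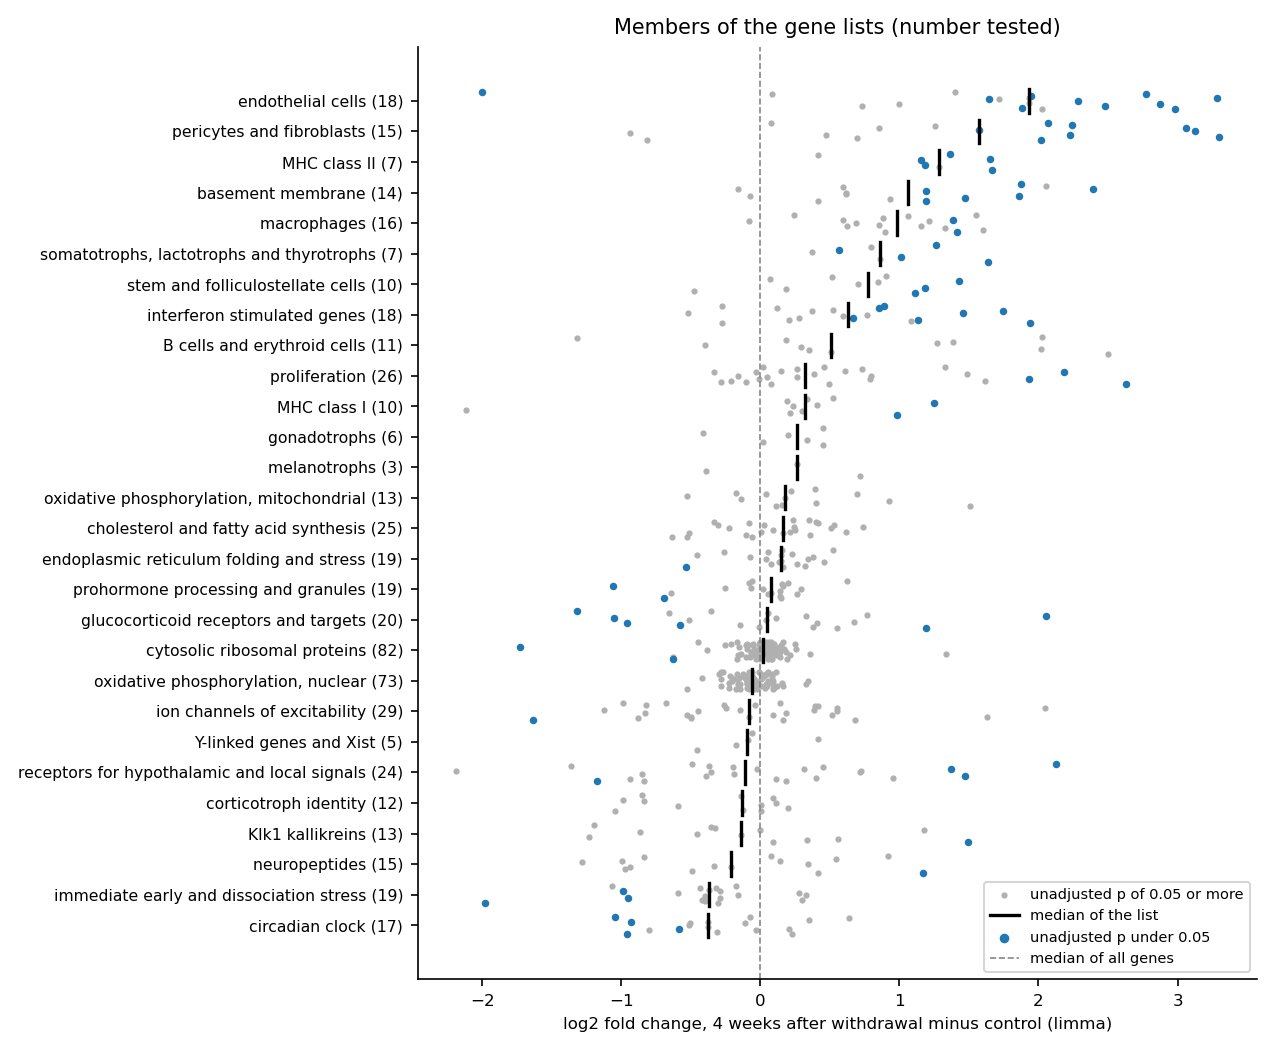
Each point is a member of 1 of the 28 gene lists, placed by its log2 fold change, 4 weeks minus control, with a bar at the list median, blue points for an unadjusted limma p under 0.05, and a dashed line at the median of all genes. Lists run from the endothelial list (median 1.93) at the top to the clock list (median -0.37) at the bottom.

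Genes of antigen presentation were also on the high side. All 7 genes of the MHC class II list had a positive log2 fold change, 5 were higher and 0 lower at an unadjusted p under 0.05, and the median was 1.29, but only 1, *H2-DMb1*, lay above every control pool. *H2-Aa*, the class II alpha chain, had 5.74, 11.1 and 20.9 units in control and 16.7, 51.7 and 49.99 at 4 weeks (log2 fold change 1.66, SE 0.553, adjusted p = 0.637). *H2-Ab1*, its beta chain, had 9.76, 25.0 and 34.9 units in control and 29.7, 92.8 and 96.3 at 4 weeks (log2 fold change 1.65, adjusted p = 0.708), and *Cd74*, the invariant chain, 29.6, 42.8 and 104 against 70.4, 141 and 155 (log2 fold change 1.18, adjusted p = 0.708). In each of these 3 genes 4-week pool 1 was the lowest of its group and lay below control pool 3. The summed level was 63.4 to 194 units in control and 137 to 359 at 4 weeks. The count of 5 went to 1 without control pool 1, 4-week pool 2 or 4-week pool 3 and to 3 without control pool 2, and 5 of the 7 genes belong to the list chosen on these libraries.

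The window of *H2-Aa* (RefSeq, GRCm38.p6, chr17:34287774-34288073, minus strand) is shown as the only 1 of the 4 class II genes with a window that holds a TGACGTCA, the cAMP response element letters, set in capitals.
H2-Aa: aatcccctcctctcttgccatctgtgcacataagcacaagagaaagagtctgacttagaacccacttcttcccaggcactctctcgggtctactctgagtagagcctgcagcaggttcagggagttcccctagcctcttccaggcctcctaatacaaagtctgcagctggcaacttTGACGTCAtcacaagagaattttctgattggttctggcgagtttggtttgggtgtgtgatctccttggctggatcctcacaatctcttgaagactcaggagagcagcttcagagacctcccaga
Of 16 macrophage markers, 2 were higher and 0 lower, with a median of 0.98, and 4 lay above all control pools. They were *Lyz2*, lysozyme, with 10.7, 6.95 and 11.96 units in control and 17.6, 31.0 and 31.6 at 4 weeks (log2 fold change 1.42, SE 0.348, adjusted p = 0.469), and *Ptprc*, the pan-leukocyte marker CD45 (log2 fold change 1.39, adjusted p = 0.750). The defining receptor *Csf1r* had 10.7, 9.42 and 8.70 units in control and 9.52, 21.6 and 17.96 at 4 weeks (log2 fold change 0.69, adjusted p = 0.825, and 0.45 without 4-week pool 2 or 1.03 without 4-week pool 1). The summed level was 37.3 to 55.2 units in control and 49.6 to 125 at 4 weeks, with 4-week pool 1 the lowest, and *Mrc1* was without a read in control pool 2. With array weights 12 of the 16 markers were higher, with DESeq2 5 and with either edgeR test 4. The macrophage count was 11 without 4-week pool 1 and 6 without control pool 3, and 1 without control pool 1 or 2 or 4-week pool 2 or 3.

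Of 10 MHC class I genes, 2 were higher and 0 lower, with a median of 0.32. *B2m*, the shared light chain, had 162, 207 and 227 units in control and 303, 411 and 474 at 4 weeks, with no overlap (log2 fold change 0.99, SE 0.279, adjusted p = 0.527). *H2-Q6* had a log2 fold change of 1.25 (adjusted p = 0.740), but it shares reads with near-identical neighbours and its value is uncertain. The count was 3 without 4-week pool 1 and 1 without control pool 1, control pool 3 or 4-week pool 3. Of 18 interferon stimulated genes, 7 were higher and 0 lower, 7 lay above all control pools, and the median was 0.63. *Ifit3* had 5.43, 3.89 and 0.652 units in control and 12.2, 14.9 and 4.96 at 4 weeks (log2 fold change 1.94, adjusted p = 0.623, and 1.06 without control pool 3), and *Bst2*, tetherin, 3.62, 4.48 and 4.35 against 6.65, 7.44 and 9.29 (log2 fold change 0.89, adjusted p = 0.754). The count of 7 went to 1 without 4-week pool 2, to 3 without control pool 1 and to 4 without 4-week pool 1. Of 11 B cell and erythroid genes 0 were higher and 0 lower, with a median of 0.51 and summed levels of 9.46 to 21.7 units in control and 12.01 to 58.3 at 4 weeks, and without control pool 2 there were 3 higher.

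**Figure D5:**
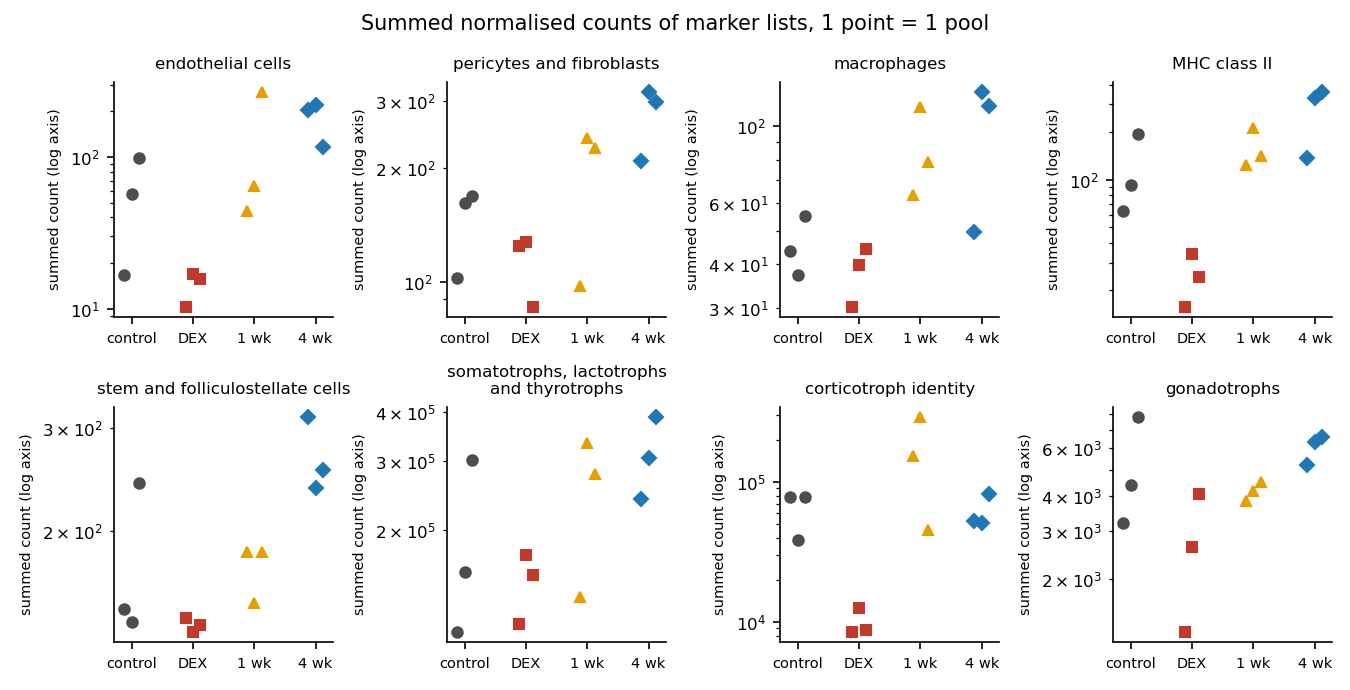
Each point is the summed normalised count of a marker list in 1 pool, on log axes, for control, DEX, and 1 and 4 weeks after withdrawal. The 4-week pools lay above all control pools for endothelial cells (116 to 222 against 16.8 to 98.5) and for pericytes and fibroblasts (208 to 317 against 102 to 169), and overlapped them for the corticotroph identity genes (50857 to 82654 against 38680 to 78429).

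Genes of other endocrine lineages were also on the high side at 4 weeks, the gonadotroph and melanotroph lists less so by their medians. All 7 genes of the somatotroph, lactotroph and thyrotroph list had a positive log2 fold change, 4 were higher and 0 lower at an unadjusted p under 0.05, and the median was 0.86. *Tshb*, the beta chain of thyrotrophin, had 119.7, 218 and 275 units in control and 709, 442 and 689 at 4 weeks, without overlap (log2 fold change 1.64, SE 0.519, adjusted p = 0.614). *Ghrhr*, the receptor through which somatotrophs are driven, had 72.2, 106 and 98.4 units in control and 138, 128 and 139 at 4 weeks (log2 fold change 0.57, adjusted p = 0.754). The other higher members were *Dio2* and *Trhr*, with log2 fold changes of 1.01 (0.67 without 4-week pool 1) and 1.26 (0.82 without 4-week pool 2). *Prl*, without overlap of the groups, had 31498, 61455 and 78966 units in control and 88423, 86332 and 119783 at 4 weeks (log2 fold change 0.86, SE 1.31, adjusted p = 0.956). *Gh*, with overlap, had 78901, 94475 and 221267 against 150271, 217545 and 265851 (log2 fold change 0.80, SE 1.74, adjusted p = 0.965). With quantile normalisation these log2 fold changes were 0.36 and 0.00, and without control pool 1 they were 0.48 and 0.51. The moderated SE of these very abundant genes was wider than the spread of their own pools, so their adjusted p does not measure that spread alone. The summed level of the list was 110746 to 300812 units in control and 239798 to 386699 at 4 weeks. Its count went to 2 without any 1 of control pools 1 and 2 and the 4-week pools.

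Of 10 stem and folliculostellate cell genes, 3 were higher and 0 lower, with a median of 0.77, and the summed level was 139 to 242 units in control and 237 to 313 at 4 weeks. They were *Aldh1a2*, *Aldh1a1* (4.48, 4.36 and 10.4 units in control and 19.5, 16.1 and 13.1 at 4 weeks, log2 fold change 1.43, adjusted p = 0.469) and *Cdh26*. *Aldh1a2*, also a leading gene, had 33.8, 38.9 and 56.4 units in control and 108, 83.3 and 83.5 at 4 weeks. *S100b*, a defining marker of folliculostellate cells, was without a read in 3 of the 6 pools. The count was 5 with array weights, and the median was 0.32 without control pool 1. Gonadotroph genes (6 tested) had 0 higher and 0 lower members, a median of 0.27 and sums of 3204 to 7774 units in control and 5197 to 6619 at 4 weeks. Melanotroph genes (3 tested) had 0 and 0, a median of 0.27 and sums of 63.6 to 120.5 against 95.7 to 131, and *Pax7*, the defining factor of melanotrophs, had 3 reads in control and 1 at 4 weeks in all. The part that these other cells had in the leading genes was not tested. The 4-week sums lay above those of control without overlap for endothelial, pericyte and basement membrane genes, and also for MHC class I and interferon stimulated genes. They overlapped those of control for the macrophage and MHC class II lists. They also overlapped for the stem and folliculostellate list, the list of somatotrophs, lactotrophs and thyrotrophs, and the gonadotroph and melanotroph lists.

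Ligands and receptors of the pituitary differed in both directions. Of 15 neuropeptide genes on the list, which does not hold the *Npb* described among the leading lower genes, 1 was higher and 0 lower (4 lower with array weights), with a median of -0.21 that ran from -0.53 without control pool 2 to 0.11 without 4-week pool 2. It was *Penk*, the enkephalin precursor, with 16.8, 12.6 and 11.5 units in control and 22.0, 44.2 and 29.0 at 4 weeks (log2 fold change 1.17, SE 0.292, adjusted p = 0.469), against a mean of 54.0 in the DEX pools. Of 24 receptors for hypothalamic and local signals 3 were higher and 1 lower, with a median of -0.11. *Sstr5* and *Sstr2*, receptors through which somatostatin restrains hormone release, had log2 fold changes of 1.37 (adjusted p = 0.714) and 1.47 (adjusted p = 0.750). *Sstr5* had 3.70, 8.25 and 10.7 units in control and 11.5, 25.1 and 19.9 at 4 weeks, without overlap. *Vipr2* rested on 1 read in control and 18 at 4 weeks, a ratio of 17.6 (95% counting interval 2.78 to 734). *Il6ra*, the receptor for interleukin 6, was the lower one, with 43.1, 30.7 and 38.6 units in control and 16.6, 12.9 and 20.4 at 4 weeks (log2 fold change -1.18, SE 0.396, adjusted p = 0.651). The count of 3 went to 0 without control pool 1 or 4-week pool 2, to 1 without control pool 2 or 4-week pool 3 and to 5 without control pool 3, array weights gave 6 higher and 5 lower, and the median ran from -0.16 without 4-week pool 1 to 0.18 without 4-week pool 3. Of 29 ion channels of excitability 0 were higher and 1 lower, with a median of -0.08. That 1 was *Kcnh4*, a potassium channel, at 2.52, 0.471 and 0.979 units in control and 0.462, 0.109 and 0.361 at 4 weeks (log2 fold change -1.63, adjusted p = 0.764), and the counts were 4 higher and 0 lower without control pool 3 and 5 and 4 with array weights.

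Proliferation genes stood at low levels in both groups. Of 26, 3 were higher and 0 lower, with a median of 0.33 that was 0.05 without 4-week pool 2. *Bub1*, of the spindle checkpoint, had 1 read in control and 24 at 4 weeks, a ratio of 23.5 (95% counting interval 3.83 to 966), and *Hmmr* had 3 and 26, a ratio of 8.49 (2.60 to 43.8). *Rrm2*, which makes the nucleotides for DNA synthesis, had a log2 fold change of 1.93 (adjusted p = 0.713). The more abundant *Mcm2*, a replication helicase subunit, had 43.9, 36.9 and 18.9 units in control and 22.5, 28.8 and 38.3 at 4 weeks (log2 fold change -0.10, adjusted p = 0.986). Of the 26, 7 belong to the list chosen on these libraries, and the count was 6 with the edgeR likelihood ratio test, 5 with array weights, 5 without 4-week pool 1 and 2 without control pool 1 or 4-week pool 2.

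The lists of housekeeping and metabolic genes lay near the median of all genes. Of 19 genes of endoplasmic reticulum folding and stress 0 were higher and 1, *Ddit3*, was lower (log2 fold change -0.54, adjusted p = 0.776), with a list median of 0.15. Of 25 genes of cholesterol and fatty acid synthesis 0 were higher and 0 lower, with a median of 0.17. Of 82 cytosolic ribosomal protein genes 0 were higher and 2 lower (*Rpl10a* and *Rpl32l*, the latter on 11 reads against 1), with a median of 0.02. The 73 nuclear and 13 mitochondrial genes of oxidative phosphorylation had 0 higher and 0 lower members, with medians of -0.06 and 0.18. Of 13 Klk1 kallikrein genes, a family of near-identical copies whose reads can be shared, 1 (*Klk1b27*) was higher and 0 lower, with a median of -0.14, whereas 7 of them differed between the 4-week and the DEX pools at an adjusted p under 0.05. Of the 13, 6 belong to the list chosen on these libraries. The list of Y-linked genes and *Xist* (5 tested), a check that the pools were alike in sex, had 0 higher and 0 lower members and a median of -0.09. Single pools moved these small counts, to 3 higher mitochondrial genes without control pool 2 and 2 without control pool 1, to 0 lower ribosomal genes without control pool 3 or 4-week pool 2 or 3, to 0 higher kallikreins without control pool 1 or 4-week pool 2 or 3, and to 2 without control pool 3.

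Against the pools still on DEX the 4-week pools did differ. In the same limma fit 216 of 24736 genes (0.873%) passed an adjusted p under 0.05, 102 of them higher and 114 lower at 4 weeks. The count rests on particular pools, and was 19 without DEX pool 1, 29 without DEX pool 3, 21 without 4-week pool 2, 40 without 4-week pool 3, 50 without 4-week pool 1, 138 without DEX pool 2 and 402 without pool 3 of the 1-week group. Of the listed genes, 9 of the 18 endothelial, 5 of the 15 pericyte and fibroblast, 4 of the 14 basement membrane and 5 of the 7 MHC class II genes were among the 216. Since the same 4-week pools enter both comparisons, values are given side by side. *Cd74* had a mean of 6.19 units in the DEX pools, 58.6 in control and 122 at 4 weeks, and *Col3a1* had 0.193, 1.89 and 9.69. *Aplnr* had a single read over the DEX pools, and means of 2.13 units in control and 12.2 at 4 weeks. Among the lower genes *Egr3* had means of 67.2 units in the DEX pools, 40.8 in control and 11.2 at 4 weeks, *Per3* had 103, 50.6 and 26.8, and *Kcnh4* 20.4, 1.32 and 0.311.

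For these genes the control mean lay between the DEX mean and the 4-week mean. *Tshb*, with 130.0, 204 and 613 units, and *Kdr*, with 1.45, 6.42 and 19.97, had the same order. *Penk* and *F2r*, not called against DEX, did not, with 54.0, 13.6 and 31.7 units and 13.3, 6.74 and 24.8 units. Nor did *Cpxm2* (9.85, 7.53 and 25.3), *Prelp* (7.15, 7.07 and 25.4) and *Plat* (38.4, 37.9 and 95.0), which were called. The other genes named here that were called against DEX had the order DEX, control, 4 weeks. Most were named for standing apart from control at 4 weeks and then kept for differing from DEX in the same 4-week pools. Both choices favour that order, which was not tested. Against the pools 1 week after withdrawal 0 genes passed an adjusted p under 0.05 with limma (1352 at an unadjusted p under 0.05, and 0, 8, 15 and 165 called by the edgeR quasi-likelihood test, limma with array weights, DESeq2 and the edgeR likelihood ratio test). *Pomc* was at a mean of 159270 units 1 week after withdrawal and 59322 at 4 weeks. *Egr3*, at 11.5 units at 1 week and 11.2 at 4 weeks, had means at both times that were far below its control mean of 40.8.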

How the data were processed

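RNA of sorted eGFP-positive cells was amplified with SMART-V4, and Nextera libraries were sequenced in 1 lane. The authors trimmed adapters with Trim Galore 0.6.5, aligned to GRCm38 with STAR 2.7.1a, counted reads per gene with featureCounts 2.0.0 and deposited a normalised signal per gene and library, the read count scaled to an effective library size set by edgeR. They counted with the reverse-stranded setting, although the library kit does not mark strand, so the counts may hold only part of each gene's reads, which also bears on the read totals and floors, and reads of overlapping genes on opposite strands cannot be told apart. Amplification adds noise to genes of few reads, and intervals on reads cover counting error only.

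Dividing each library by the value of 1 read gave whole reads for 100% of 271881 values above 0 (largest distance 6.29e-09, tolerance 1e-06). The test had been planned for counts scaled to the plain library total and was kept. It was limma 3.58.1 in R 4.3.3 on log2(value + 0.1) over genes above 0.1 in at least 3 libraries, with 4 group means fitted to the 12 libraries, no covariate and Benjamini-Hochberg adjustment. Fold changes are on that scale and understate the change of low genes. Libraries were grouped by their titles. The alternatives were edgeR 4.0.16 and DESeq2 1.42.0 on the recovered reads, array weights, robust moderation, pseudocounts of 0.5 and 1, other filters and scalings, a replicate block, the 2 groups alone and each library left out, and the scripts were tested on simulated data.

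Named genes were the 10 higher and 10 lower with the smallest p among genes whose groups did not overlap and whose mean was at least 1 in either group, up to 8 more per direction called by at least 2 alternative tools (unnamed gene models left out), 8 corticotroph and receptor genes, up to 4 members per list with p under 0.05, and the 3 most abundant members of each list of cell type markers. *Peg3* and *Hif3a* were named after their values were seen, and 1 gene that the rule names is not reported here. The members and the 28 lists were chosen with earlier results of these data known. Gene coordinates are from GENCODE on GRCm38, and promoter windows from RefSeq were held for 25 of the 35 leading genes.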

Additional observations from a re-analysis of the deposited data

Results flagged for a closer look

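The results below differed between 4 weeks after withdrawal and DEX treatment, which is the test, in the limma fit, of whether the 2 groups' differences from the shared control pools were the same. It called 216 of 24736 genes (0.873%) at an adjusted p under 0.05, among them 30 of the 121 named genes. Most named genes were chosen on values of the same 4-week pools, so their larger share is not a result about them. Values are log2 fold changes, 4 weeks minus DEX.

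Among antigen presentation genes the value was 4.35 for *Cd74*, 4.69 for *H2-Ab1*, 4.19 for *H2-Aa*, 3.26 for *H2-DMb1* and 2.7 for *H2-Q6*, and for the interferon stimulated genes *Ifi44* and *Bst2* it was 2.95 and 1.94. Endothelial genes gave 6.57 for *Aplnr*, 4.70 for *Plvap*, 4.54 for *Adgrl4*, 4.01 for *Pecam1* and 3.81 for *Kdr*. The value for *Aplnr* rests on 1 read over the DEX pools against 369 at 4 weeks, a ratio of 395 with a 95% counting interval of 70.4 to 15640. Genes of pericytes, fibroblasts and basement membrane gave 5.34 for *Col3a1*, 4.43 for *Pdgfrb*, 2.47 for *Fbln5*, 3.08 for *Nid1*, 2.67 for *Col4a2*, 2.40 for *Col4a1* and 1.52 for *Nid2*. The thyrotroph hormone gene *Tshb* had 2.59 and the somatostatin receptor *Sstr2* 3.33. Of the leading higher genes, *Tril* had 2.26, *Prelp* 1.83, *Cpxm2* 1.34 and *Plat* 1.29.

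Lower at 4 weeks than under DEX were *Kcnh4* at -5.65, *Myom1* at -3.11, *Egr3* at -2.69, *Ciart* at -2.58 and *Per3* at -1.97.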

How the results depend on the processing

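Against control, limma called 0 genes with either pseudocount, every filter and scaling, robust moderation and the 2 groups alone, and 186 with array weights, 93 with the edgeR likelihood ratio test and 59 with DESeq2. Leaving out 1 library gave 0 to 1, the 1 being *Prelp* without control pool 3. Against DEX the 216 became 1300 with array weights, 664 with the likelihood ratio test, 662 with DESeq2 and 21 with the 2 groups alone, and 19 to 402 with 1 library left out. Against 1 week the 0 became 8 with array weights, 165 with the likelihood ratio test and 15 with DESeq2, and 0 to 1 with 1 library left out. The cause of these differences between tools was not tested.

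Of 1569 values of 121 named genes under the alternatives, 1457 kept their direction and their side of the threshold, 105 passed the threshold and 7 changed sign, in *Pomc* (-0.011 with median-ratio scaling, -0.36 with quantile normalisation, -0.046 with both edgeR tests, -0.055 with DESeq2), *Nr3c2* (-0.14 with array weights) and *Pax7* (0.068 with array weights). With 1 library left out, 10 of 1449 values changed sign, and the ranges were -0.37 to 0.19 for *Pomc*, -0.20 to 0.67 for *Pcsk1*, -0.12 to 0.17 for *Nr3c2*, -0.46 to 0.14 for *Mcm2* and -0.043 to 0.069 for *Gnrhr*. Of 364 list medians, 32 moved by more than the spread between pools.

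With the replicate number as a replicate block, 0 genes passed against control (1799 at an unadjusted p under 0.05 against 1570 without it), 241 against DEX and 0 against 1 week. The deviations of same-numbered control and 4-week pools correlated at 0.0761, 0.0167 and 0.0591. Each control pool correlated best with the 4-week pool of its own number, whereas 4-week pool 2 correlated best with control pool 3 (0.0272). These values are small, and whether same-numbered pools were handled together was not tested. Same-numbered control and 1-week pools correlated at 0.202, 0.136 and 0.397, and 4-week and 1-week pools at 0.112, 0.0527 and -0.107. At 1 read per 0.0787 to 0.118 units, values under about 1 unit rest on few reads, and a difference there was often not detectable.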
